A study of Mus musculus with 24 samples.

Results

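The sites described here are 1039 genomic regions that were listed as Foxa1 peaks in the induced hepatocyte-like (iHep) line 4a1 and had no Foxa peak in lines 4a2 or 4a3. All peaks of 9 chromatin immunoprecipitation sequencing (ChIP-seq) lists, 3 per line, were merged where they overlapped by at least 1 bp, which gave 16880 regions. Regions with peaks of line 4a1 alone numbered 1120. Of these, 81 lay in 2 blocks packed with peaks, on chromosome 9 (mm9, 3000010 to 3038304) and on chromosome 17 (39980018 to 39985706), and were left out, as were the other regions there. The 1039 remaining 4a1-only sites stood among 16794 regions outside the blocks, of which 3867 held a 4a1 peak. The sites were chosen by measured values, the presence of a peak in 4a1 lists and its absence in 6 other lists. Number, recurrence between libraries, rank, width and distance to 4a2 and 4a3 peaks are therefore given as a description, with no test.

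All cells were from C57BL/6 mice. Line 4a1 was made by infecting mouse embryonic fibroblasts, taken at 13.5 days post coitum, with Foxa1 and Hnf4alpha, and was probed with a Foxa1 antibody. The lines it is set beside were fibroblasts infected with Foxa2 and Hnf4alpha (4a2, Foxa2 antibody) or with Foxa3 and Hnf4alpha (4a3, Foxa3 antibody). Every iHep line thus carried introduced Hnf4alpha. Further lists came from a Flag antibody in lines 4a2 and 4a3, with 1 library each, and from Foxa1, Foxa2 and Foxa3 antibodies in hepatocytes of livers of 10-week-old mice, with 1 library each. The series held 24 samples, of which 14 gave a peak list and 10 were input libraries, not analysed here. Line, introduced factor and antibody changed together and cannot be told apart. The labels do not say whether numbered cultures of a line were separate inductions, so the spread between libraries may be technical.

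The Foxa proteins share a forkhead domain, closely similar among them, with which they bind DNA. They are known as pioneer factors, which can bind their sites in compacted chromatin, and they act in the specification of liver from endoderm and in adult hepatocytes. Hnf4alpha is a nuclear receptor that regulates many hepatocyte genes. Introduced together, a Foxa factor and Hnf4alpha convert fibroblasts to cells with hepatocyte features.

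Line 4a1 had 3 libraries, numbered 1, 2 and 2 in their titles. The number is read here as that of a culture, which the labels do not state. Culture 1 was prepared in a way the labels mark EGS, a term they do not spell out, and gave 940 peaks. Culture 2 gave 542 peaks with the EGS mark, 91 of them (16.8%) in the 2 blocks, and 3431 peaks in a library without the mark (non-EGS). For line 4a2 the lists held 957 and 1040 EGS peaks and 11408 non-EGS peaks, and for line 4a3 they held 1246 and 46 EGS peaks and 4317 non-EGS peaks. The Flag lists held 21 peaks in line 4a2 and 883 in line 4a3, and the hepatocyte lists held 166 (Foxa1), 244 (Foxa2) and 1091 (Foxa3). Sequencing depth is unknown, since the lists hold no read counts. A site that is absent from a list was not listed there, and whether it was bound below the calling threshold was not tested.

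Most 4a1-only sites rested on the non-EGS library alone. This library was the sole source of 929 sites, or 89.4% (exact 95% interval 87.4 to 91.2, which covers counting error only, as do all intervals here). EGS lists alone gave 81 sites, or 7.80% (6.24 to 9.60), of which 50 came from culture 1 and 31 from culture 2. Sites in both an EGS list and the non-EGS list numbered 29, or 2.79% (1.88 to 3.98). Without the non-EGS library of line 4a1, 111 sites met the same rule.

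Few of the sites recurred between libraries of their own line. A peak in at least 2 of the 3 libraries was found at 29 of the 1039 sites (2.79%), against 689 of 2828 regions that line 4a1 shared with another line (24.4%, 22.8 to 26.0). Over all 3867 regions with a 4a1 peak the share was 18.6%. All 3 libraries listed 2 of the 4a1-only sites, against 205 of the shared regions. The other 27 recurred in 2 libraries. Of these, 22 were in the EGS and non-EGS lists of culture 2, and 5 were in the EGS list of culture 1 and the non-EGS list. Without the EGS library of culture 2, 7 sites recurred, and without the non-EGS library 1 did.

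The 4a1-only sites took a different share of each list. They held 57 peaks of the EGS list of culture 1, which is 6.06% of that list (4.62 to 7.79). They held 55 peaks of the EGS list of culture 2, or 12.2% of the 451 peaks outside the blocks (9.32 to 15.6). In the non-EGS list they held 958 peaks, or 27.9% (26.4 to 29.5). Recurrence was lower at 4a1-only sites than at shared regions in each list. Of the peaks at 4a1-only sites, 12.3% (5.08 to 23.7) in the EGS list of culture 1 overlapped a peak of another 4a1 list. At shared regions 70.1% (67.0 to 73.1) of the peaks did. The shares were 43.6% (30.3 to 57.7) and 86.1% (82.3 to 89.4) in the EGS list of culture 2, and in the non-EGS list 3.03% (2.04 to 4.32) and 25.8% (24.1 to 27.6).

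The median rank of peaks at 4a1-only sites was lower than at shared regions in 2 of the 3 lists. Each peak carries the authors' score, on a scale that is not given in the sources used here, so scores were turned into percentiles within their own list. Percentiles were taken over the full list, peaks in the blocks included. The blocks held 16.8% of the culture 2 EGS list and 0% of the others of line 4a1, so its percentiles are not directly comparable with theirs. In the non-EGS list the median percentile was 35.4 at 4a1-only sites and 57.1 at shared regions. It was 36.7 and 50.7 in the EGS list of culture 1, and both medians were 40.3 in that of culture 2. Tied scores were common in every list, with 93.7% of the EGS list of culture 1, 68.8% of that of culture 2 and 76.1% of the non-EGS list. Medians can thus fall on tied values. In the EGS list of culture 2 the lower quartile was 15.9 at 4a1-only sites and 24.8 at shared regions. The upper quartile there was 61.6 and 66.4. The top of each list was held by shared regions. The highest non-EGS score was 131.4 at a 4a1-only site and 420.6 at a shared region, and the corresponding scores were 18.6 and 155.5 in the EGS list of culture 1 and 18.0 and 107.7 in that of culture 2.

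When each list was divided into score deciles, with equal scores kept together, 43.4% of the lowest non-EGS decile lay at 4a1-only sites (149 of 343 peaks, 38.1 to 48.9). In the highest decile the share was 6.41% (22 of 343 peaks, 4.06 to 9.55). The EGS list of culture 1 had 15.2% of its lowest decile (12 of 79 peaks) and 1.06% of its highest (1 of 94) at such sites. For culture 2 the EGS list had 18.2% (10 of 55) and 10.3% (4 of 39). Deciles were cut on the full list, so those of this list are uneven also because its block peaks were then dropped. The decline with score was thus steep in the non-EGS list, and the EGS deciles held too few members for a firm shape.

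**Figure D1:**
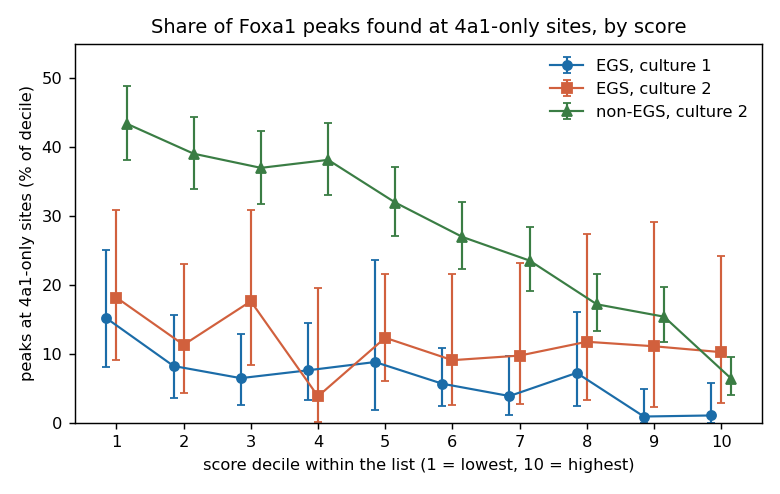
Percent of the peaks of each 4a1 Foxa1 list outside the blocks that lie at 4a1-only sites (vertical axis). The horizontal axis gives the score decile within the full list (1 is lowest), and bars are exact 95% intervals. The non-EGS library runs from 43.4% in the lowest decile to 6.41% in the highest.

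Peaks at 4a1-only sites were also narrower. Their median width was 386 bp in the non-EGS list, against 433 bp at shared regions. The medians were 112 and 146 bp in the EGS list of culture 1, and 132 and 139 bp in that of culture 2. The narrowest width of the EGS list of culture 1 was carried by 22.8% of its peaks at 4a1-only sites and by 8.49% of its peaks at shared regions. For the narrowest width of the EGS list of culture 2 these shares were 16.4% and 15.9%, and for that of the non-EGS list 5.22% and 2.18%. As merged regions, the sites were 94 to 783 bp wide with a median of 379 bp, against 109 to 5834 bp and a median of 559 bp for shared regions, which join peaks of more lists.

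Both 4a1-only sites that were present in all 3 libraries ranked very differently between the libraries. The site on chromosome 11 (64640971 to 64641549, 579 bp) had scores of 11.87 in the EGS list of culture 1, 9.04 in the EGS list of culture 2 and 53.96 in the non-EGS list, at percentiles of 74.0, 31.5 and 91.0. It lay 115 kb from the nearest 4a2 peak and overlapped a Flag peak. The site on chromosome 12 (100445113 to 100445722, 610 bp) had scores of 6.10, 9.62 and 131.4 in the same order, at percentiles of 5.05, 40.3 and 99.4. It had the highest non-EGS score of any 4a1-only site and lay near the foot of the EGS list of culture 1. Its nearest 4a2 peak was 236 kb away.

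Among the 27 sites found in 2 libraries, the mean percentile ran from 7.12 to 83.2 with a median of 46.7. The 5 highest were all in the EGS and non-EGS lists of culture 2. The site on chromosome 16 (62418470 to 62418950) stood at percentiles of 78.1 in the EGS list and 88.3 in the non-EGS list, 764 kb from the nearest 4a2 peak. On chromosome 15 (41677498 to 41678012) the percentiles were 69.6 and 81.0, and the 4a2 peak was 175.6 kb away. These 2 sites ranked high in both lists. On chromosome 4 (33957891 to 33958513) they were 40.3 and 98.7, at 27.3 kb. A second site on chromosome 4 (6841251 to 6841800) had percentiles of 47.5 and 82.8, and a 4a2 peak stood 227 bp away. The site on chromosome 13 (32409237 to 32409720) had 47.5 and 84.8, at 43.8 kb. For these last 3 sites the non-EGS list gave the higher rank.

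**Figure D2:**
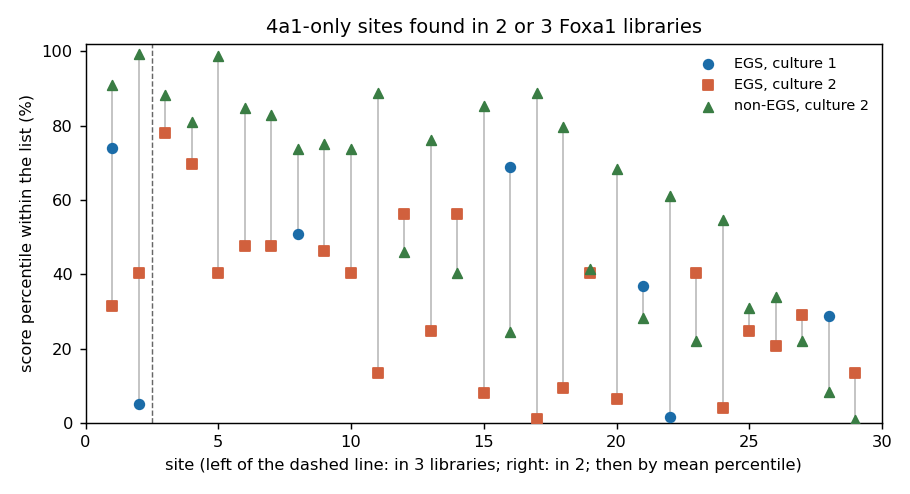
Score percentile within each list (vertical axis) at the 29 4a1-only sites that 2 or 3 Foxa1 libraries held, 1 column per site, with the 2 sites of all 3 libraries left of the dashed line. At the second of these 2 sites the percentiles run from 5.05 in the EGS list of culture 1 to 99.4 in the non-EGS list.

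Single-library sites reached high ranks too. In the EGS list of culture 1 the highest 4a1-only peaks lay on chromosome 19 (38128227 to 38128357, percentile 94.4), chromosome 10 (86310022 to 86310131, 84.7) and chromosome 1 (153421977 to 153422124, 78.2). The chromosome 10 site was 1282 bp from a 4a2 peak and 255 bp from a region shared with another line. In the non-EGS list the third highest, after the chromosome 12 and chromosome 4 sites above, was a 712 bp site on chromosome 10 (59734102 to 59734813, percentile 98.1), 292 kb from any 4a2 peak and in no other 4a1 list. The highest of the EGS list of culture 2 lay on chromosome 12 (3109873 to 3110122, percentile 94.2) and at a pair of places on chromosome 2 (98506723 to 98507480, 94.0, and 98502400 to 98503130, 93.6). Each of these last 3 overlapped a hepatocyte Foxa1 peak. The widest sites measured 783 bp on chromosome 10 (10948393 to 10949175), 758 bp on chromosome 2 and 739 bp on chromosome 4 (78430196 to 78430934).

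Distances to Foxa2 peaks of line 4a2 were limited by the rule, which removed every region that touched one. No distance of scattered sites was computed to set beside them. The median distance to the nearest 4a2 peak was 54.1 kb (interquartile range 14.9 to 166.9 kb). Within 1 kb lay 43 sites (4.14%, 3.01 to 5.53), within 10 kb 211 (20.3%, 17.9 to 22.9) and within 100 kb 662 (63.7%, 60.7 to 66.6). Sites of line 4a3 alone were closer, with a median of 23.9 kb and 33.4% (31.9 to 34.9) within 10 kb. Of the 43 nearest neighbours within 1 kb, 42 were in the non-EGS list of line 4a2, which also held most of that line's peaks, at a median percentile of 43.2. Distances to line 4a3, whose lists held fewer peaks, were longer, with a median of 347.8 kb and 5.39% of sites within 10 kb. To the nearest region that line 4a1 shared with another line the median was 190.6 kb.

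The distance to 4a2 differed with the source library. Of the 57 sites with a peak of the EGS list of culture 1, 28 (49.1%, 35.6 to 62.7) lay within 10 kb of a 4a2 peak, and their median distance was 12.3 kb. For the EGS list of culture 2 it was 12 of 55 sites (21.8%, 11.8 to 35.0), with a median of 43.8 kb. For the non-EGS list it was 178 of 958 (18.6%, 16.2 to 21.2), with a median of 57.0 kb. Sites of the EGS list of culture 1 thus had the shortest median distance and the highest share within 10 kb. For line 4a3 the same list led again, with 22.8% of its sites within 10 kb of a 4a3 peak, against 5.45% for the EGS list of culture 2 and 4.38% for the non-EGS list.

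**Figure D3:**
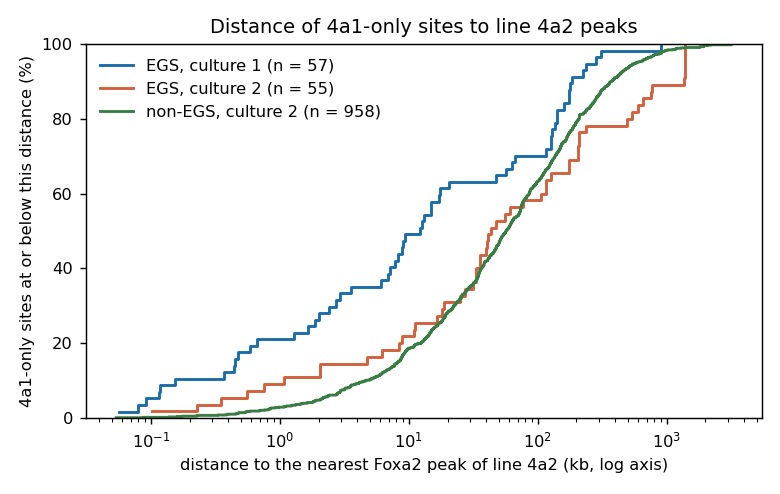
Cumulative percent of 4a1-only sites (vertical axis) within a given distance of the nearest Foxa2 peak of line 4a2 (horizontal axis, kb, log axis), by source library. The curve of the EGS library of culture 1 lies to the left, with a median of 12.3 kb, against 43.8 kb for the EGS library of culture 2 and 57.0 kb for the non-EGS library.

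The rule has a sharp edge, since 1 bp of overlap removes a site. No 4a1-only site had a 4a2 peak within 50 bp, 5 had one within 100 bp and 26 within 500 bp. The nearest 3 were on chromosome 8 (59904444 to 59904823, gap 54 bp, non-EGS percentile 24.4), chromosome 13 (5844665 to 5844780, gap 57 bp, EGS culture 1 percentile 12.1) and chromosome 13 (9057101 to 9057199, gap 79 bp, EGS culture 1 percentile 74.0). On the other side of the edge, 7 shared regions overlapped by under 50 bp. The closest were on chromosome 19 (29138355 to 29138789, 15 bp), chromosome 13 (51948275 to 51948493, 25 bp) and chromosome 10 (93086684 to 93086879, 28 bp with a 4a3 peak), at 4a1 percentiles of 56.2, 36.7 and 56.2. The farthest sites lay on chromosome 8 (101554911 to 101555415 at 3197 kb, percentile 82.2, and 101551236 to 101551653 at 3193 kb, percentile 72.3) and on chromosome 10 (105256610 to 105256991 at 2196 kb, percentile 7.32).

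Flag peaks overlapped few 4a1-only sites. The rule did not use the Flag lists, but they came from lines 4a2 and 4a3, whose Foxa peaks it excluded. A Flag peak was present at 18 of 1039 sites (1.73%, 1.03 to 2.72), against 3.47% of all iHep Foxa regions. The share was 7.02% (6.03 to 8.12) at regions of 4a1 and 4a2 without 4a3, and 44.5% (39.6 to 49.4) at regions of all 3 lines. It was 1.29% (1.06 to 1.56) at sites of 4a2 alone and 1.25% (0.934 to 1.64) at sites of 4a3 alone, so the 4a1-only share lay near that of the other sites of a single line. All 18 came from the Flag list of line 4a3, and the list of line 4a2, with 21 peaks, gave none. The lowest score in the 4a3 Flag list was 50, against at most 5.87 in each other list, so its peaks were listed from a different score. Without the non-EGS library of line 4a1, whose Flag share was the lowest, 9.01% of the sites that met the rule had a Flag peak. No Flag list of line 4a1 was used, so these shares say nothing of Flag signal in line 4a1. All Flag and hepatocyte lists carry the EGS mark, while 89.4% of the 4a1-only sites came from the non-EGS library alone, and the part this has in the shares was not tested.

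Within the libraries, the Flag share was lower at 4a1-only sites in 3 of 3 lists. This comparison is tied to the rule. Shared regions hold a Foxa peak of line 4a2 or 4a3, the lines of the Flag lists, and 4a1-only sites hold none. A lower Flag share may thus be built into the choice of sites, so no conclusion is drawn from the test below. In the EGS list of culture 1, 2 of 57 peaks at 4a1-only sites overlapped a Flag peak (3.51%, 0.428 to 12.1), against 259 of 883 at shared regions (29.3%, 26.3 to 32.5). For the EGS list of culture 2 it was 8 of 55 (14.5%, 6.50 to 26.7) against 157 of 396 (39.6%, 34.8 to 44.7). In the non-EGS list it was 11 of 958 (1.15%, 0.575 to 2.05) against 266 of 2473 (10.8%, 9.56 to 12). The mean difference was -20.2 ± 9.16 percentage points (SD, n = 3 libraries). An exact two-sided sign-flip permutation test over the 3 libraries gave p = 0.25, the smallest it allows, and 0.5 after Benjamini-Hochberg adjustment over the 2 tests run, so the difference did not pass the threshold of 0.05 and could not have. The 3 libraries carry only 2 culture numbers, so they may not be independent. With both libraries of number 2 averaged, a choice made after the data were seen, the mean difference over the 2 numbers was -21.6 points, and the exact permutation p was 0.5, the smallest 2 values allow. Without the Flag list of line 4a3 the mean difference was -0.837 points.

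The shared regions include those with a 4a3 peak, and the Flag peaks came from line 4a3. Set beside regions of 4a1 and 4a2 without a 4a3 peak, a choice made after the data were seen, the Flag shares of the other peaks were 18.5% (15.4 to 21.9), 23.0% (17.8 to 28.9) and 5.98% (5.01 to 7.06) in the EGS list of culture 1, the EGS list of culture 2 and the non-EGS list. The difference was then -9.41 points on average, lower at 4a1-only sites in 3 of 3 lists. Median rank was also lower at 4a1-only sites in 2 of the 3 lists. At the Flag shares of the other peaks of the same score decile, Flag overlaps would have numbered 13.1, 21.5 and 70.1 in the 3 lists. Observed were 2, 8 and 11, and the mean difference within deciles was -16.7 points. In both comparisons the other peaks lie at regions with a 4a2 or 4a3 Foxa peak. A lower Flag share may thus be built in here too, and no conclusion is drawn from either. In the highest non-EGS decile, 2 of 22 peaks at 4a1-only sites (9.09%, 1.12 to 29.2) had a Flag peak, against 94 of 321 at shared regions (29.3%, 24.4 to 34.6). In the lowest decile it was 1 of 149 (0.671%) against 5 of 194 (2.58%).

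**Figure D4:**
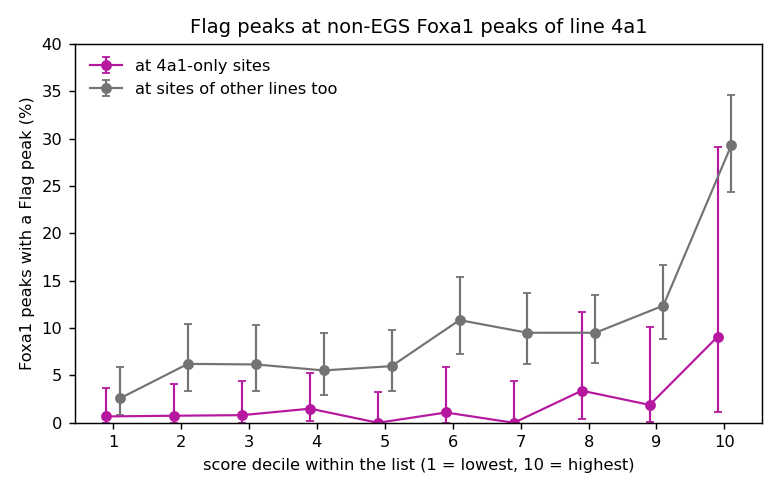
Percent of non-EGS Foxa1 peaks of line 4a1 that overlap a Flag peak (vertical axis), by score decile (horizontal axis), at 4a1-only sites and at regions shared with another line, with exact 95% intervals. In the highest decile the values are 9.09% and 29.3%.

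The 18 sites with a Flag peak were spread over ranks and libraries. Of these, 8 came from the non-EGS list alone, 5 from the EGS list of culture 2 alone, 2 from the EGS list of culture 1 alone and 3 from at least 2 libraries. Their mean percentile ran from 7.18 to 94.0, with a median of 57.8. The highest were both chromosome 2 sites named above, then sites on chromosome 9 (35112803 to 35113173, percentile 93.1), chromosome 14 (35967532 to 35968023, 92.5) and chromosome 1 (107781732 to 107782149, 75). None of the 18 lay within 10 kb of a 4a3 Foxa3 peak, and the rule bars overlap with one. The share over all 1039 sites was 5.39%, so 18 sites are too few to show a difference. Their Flag peaks were of line 4a3. The median distance of the 18 to a 4a3 Foxa3 peak was 929 kb, against 347.8 kb for all sites. Of the 18, 3 lay close together on chromosome 2, at 3254 to 3259 kb from a 4a3 peak, so they are not separate values in that median.

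Hepatocyte Foxa peaks were as rare, at 18 of 1039 sites (1.73%, 1.03 to 2.72), against 1.92% of all iHep Foxa regions. The share was 1.0% (0.644 to 1.49) at regions of 4a1 and 4a2 without 4a3, 8.41% (5.93 to 11.5) at regions of all 3 lines, 0.435% at sites of 4a2 alone and 4.72% at sites of 4a3 alone. Both a Flag and a hepatocyte peak were present at 5 sites, and neither at 1008.

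Most of the hepatocyte overlap, 12 of the 18 sites, sat in the EGS list of culture 2, and the other lists gave 3 sites each. In the EGS list of culture 2, 12 of 55 peaks at 4a1-only sites had a hepatocyte peak (21.8%, 11.8 to 35.0), against 20 of 396 at shared regions (5.05%, 3.11 to 7.69). In the EGS list of culture 1 it was 3 of 57 (5.26%, 1.10 to 14.6) against 51 of 883 (5.78%, 4.33 to 7.52), and in the non-EGS list 3 of 958 (0.313%, 0.0646 to 0.912) against 30 of 2473 (1.21%, 0.820 to 1.73). The mean difference was 5.12 ± 10.1 points (SD, n = 3 libraries), with lower values at 4a1-only sites in 2 of 3 lists. The exact two-sided permutation p was 1, also after adjustment. With both libraries of number 2 averaged the mean difference was 3.71 points. Without the EGS library of culture 2 the mean difference was -0.706 points, and 0.595% of the sites that then met the rule had a hepatocyte peak. Without the non-EGS library the percent was 13.5.

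**Figure D5:**
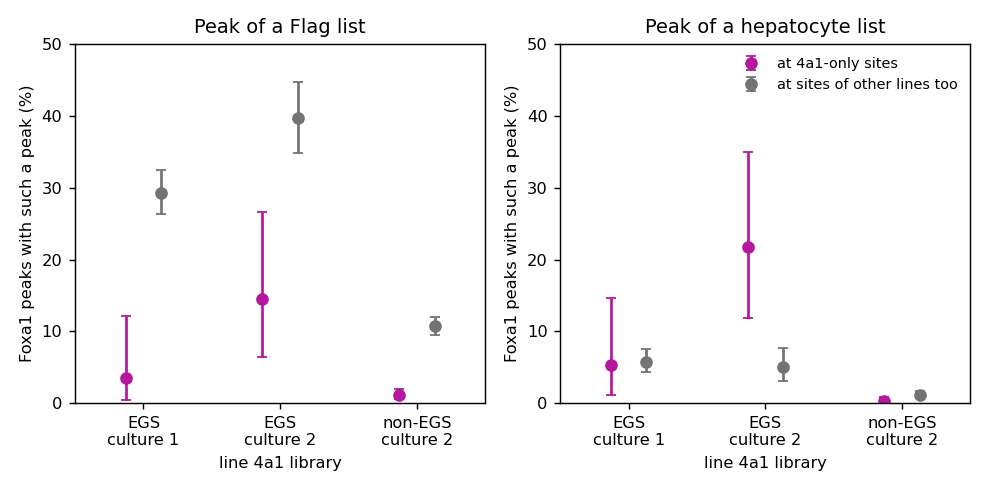
Percent of the Foxa1 peaks of each 4a1 library (horizontal axis) that overlap a Flag peak or a hepatocyte Foxa peak (vertical axis), at 4a1-only sites and at regions shared with another line, with exact 95% intervals. For hepatocyte peaks, only the EGS library of culture 2 is higher at 4a1-only sites, with 21.8% against 5.05%.

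Most of this overlap was with the hepatocyte Foxa1 list, and that part came through 1 library of line 4a1. The hepatocyte Foxa1 list reached 12 of the sites, the Foxa2 list 7 and the Foxa3 list 3, with 3 sites in more than 1 list. For Foxa1 this was 1.15% of the sites, against 0.113% of all iHep Foxa regions, or 19 regions that include these 12. The Foxa2 share, 0.674% against 0.536%, was near that of all regions, and the Foxa3 share, 0.289% against 1.38%, was below it. All 12 hepatocyte Foxa1 sites were in the EGS list of culture 2 and in no other 4a1 list, and they made up 12 of its 31 sites of that kind. They ranked high there, with a median percentile of 79.1 (7.84 to 94.2), and included all 4 of the 4a1-only sites in the list's highest decile. Seen from the hepatocyte side, 18 of the 87 hepatocyte Foxa1 peaks outside the blocks overlapped any iHep Foxa region, and 11 of those 18 (61.1%) did so at 4a1-only sites. Of the hepatocyte Foxa2 peaks that overlapped an iHep region, 7 of 90 (7.78%) did so at 4a1-only sites, and of the hepatocyte Foxa3 peaks 3 of 301 (0.997%) did.

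Of the 12 sites, 5 formed a run of 5081 bp on chromosome 2 (98502400 to 98507480), at percentiles of 73.3 to 94.0, among them a site at 98505145 to 98505377 with a percentile of 87.5. All 5 had a hepatocyte Foxa1 peak and 3 had a Flag peak. The other 7 lay elsewhere, among them the chromosome 12 site at percentile 94.2 and the chromosome 9 site at 93.1. The chromosome 9 site had a Flag peak too. Without the run, a choice made after the data were seen, the mean hepatocyte difference was 2.51 points. The hepatocyte Foxa1 list and the EGS list of culture 2 also had much of their peaks in the 2 blocks left out, 47.6% and 16.8%, and whether these sites and the blocks share a property was not tested.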

How the data were processed

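ChIP-seq peak lists of 14 libraries were used. The submitters' processing notes name mm9, bedtools 2.16.2, MACS2 2.1.0 and BWA 0.6.2, without roles, order or settings, and whether an input was used is not stated there. Each deposited list gives mm9 positions and a score per peak, which is the authors' own value on an unstated scale; the lists were treated as called per library. Score percentiles are mid-ranks within a full list, peaks in the blocks included, and tied scores share a decile. Peaks were merged, and overlaps counted, from 1 bp (Python 3.11.15, numpy 2.4.6, pandas 2.3.3, scipy 1.17.1; merging was checked with bedtools 2.31.1). Intervals are exact Clopper-Pearson at 95%, cover counting error only, and are too narrow where peaks lie close together. The libraries of line 4a1 were each compared with themselves in an exact sign-flip permutation test; no test was run over regions. The members and lists were chosen with earlier results of these data known.

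Named sites were those in all 3 libraries or both EGS lists, the 5 highest-ranked of those in 2 libraries, the 3 highest per list, the 5 highest each with Flag or hepatocyte peaks, the 3 nearest to and farthest from a 4a2 peak, the 3 widest, and the 3 stretches of at most 100 kb with most sites. No mm9 genome or annotation was used here, so genes, motifs and sequences were not analysed.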

Additional observations from a re-analysis of the deposited data

How the results depend on the processing

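With EGS lists only, 528 sites met the rule, 48 of them in at least 2 libraries, 10.2% with a Flag and 3.41% with a hepatocyte peak. Without the non-EGS list of line 4a2, whose loss removes most peaks of that line, these values were 2965, 264, 2.93% and 0.776%. When every list was cut to its best-scoring 50%, 580 sites met the rule, 11 in at least 2 libraries and 3.79% with a Flag peak. With non-EGS lists only, 0.310% had a hepatocyte peak, and with the blocks kept 8.84%. Leaving out 1 library of 4a1 at a time gave 111 to 1008 sites, 1 to 24 in at least 2 libraries, 1.29 to 9.01% with a Flag peak and 0.595 to 13.5% with a hepatocyte peak. The cause of these shifts, beyond fewer lists entering, was not tested.

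The Flag difference of -20.2 points kept its sign under all 16 alternatives, from -36.4 (EGS only) to -0.837 (without the Flag list of 4a3), and from -25.5 to -17.5 with 1 library left out. Each alternative still chose sites by their lack of 4a2 and 4a3 peaks, so the constant sign is no separate support. The hepatocyte difference of 5.12 points reversed to -4.19 with EGS lists only, -0.858 without the hepatocyte Foxa1 list and -3.52 without the non-EGS list of 4a2. It ran from -0.706 to 8.13 with 1 library of 4a1 left out, and the cause was not tested. The alternatives chosen after the data were seen were comparing within score deciles, averaging libraries of the same number, leaving out the chromosome 2 run and setting the sites beside regions without a 4a3 peak. With the replicate number as a block, so that the libraries numbered 2 counted once, the Flag and hepatocyte differences were -21.6 and 3.71 points. With non-EGS lists only, 1 library of 4a1 remained, which gives neither a test nor a recurrence count. Motifs and nearby genes were planned and not run, since no mm9 genome was used. With 3 libraries the test cannot pass 0.05, and unknown depth limits what absence from a list means.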

Other observations

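Most of the sites had no other 4a1-only site within 100 kb, and no spacing of scattered sites was computed to set beside this. Another 4a1-only site lay within 1 kb of 17 of them (1.64%), within 10 kb of 69 (6.64%) and within 100 kb of 199 (19.2%). Apart from the run on chromosome 2, only 2 stretches of at most 100 kb held 4 or more. One spanned 64011 bp on chromosome 12 (40823495 to 40887505) with 4 sites at percentiles of 25.5 to 70.3, and the other 67371 bp on chromosome 7 (82540525 to 82607895) with 4 sites at 16.3 to 31.3. The chromosome 12 sites were from the non-EGS list, and the chromosome 7 sites from the non-EGS list and the EGS list of culture 1. None of them had a Flag or hepatocyte peak.

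The X chromosome held 31 of the 4a1-only sites (2.98%, 2.04 to 4.21), against 41 of the 2828 regions shared with another line (1.45%, 1.04 to 1.96). Over all iHep Foxa regions outside the blocks it held 311 (1.85%). Other chromosomes differed from the shared regions too, such as chromosome 12 (5.49% against 3.96%) and chromosome 11 (3.95% against 5.34%). In the non-EGS list 28 of 958 peaks at 4a1-only sites were on X (2.92%, 1.95 to 4.20), against 35 of 2473 at shared regions (1.42%, 0.988 to 1.96). In the EGS list of culture 2 it was 3 of 55 (5.45%) against 4 of 396 (1.01%), and in the EGS list of culture 1 it was 0 of 57 (upper bound 6.27%) against 5 of 883 (0.566%). These shares were noticed in the data and not tested.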
